A study of Mus musculus with 91 samples.

Results

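Small RNA was compared between E7.5 semi-cloned (SC) embryos of the genotype *Mir-6KO*;*Dnmt*-null and E7.5 SC control embryos, with 3 libraries of each, so that these 6 libraries of the 91 in the series are described. They were chosen by their titles and stage alone, and no measured value was used. Of 1504 mature miRNAs in the table, 861 had at least 1 count in the 6 libraries and 585 were abundant enough to be tested, 490 of them outside the imprinted *Dlk1-Dio3* locus and 95 inside it. The account below rests mostly on those outside, since 5 of the 6 deleted miRNA genes lie inside.

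SC embryos were made by injecting androgenetic haploid embryonic stem cells (AG-haESCs) into oocytes, where the cells take the place of sperm. According to the study, the control embryos came from DKO-AG-haESCs, in which the *H19* and *IG* differentially methylated regions are deleted, and both groups therefore carry both deletions on the paternal genome. For the mutant group, 6 miRNA genes (*miR-409*, *miR-127*, *miR-540*, *let-7b*, *miR-369* and *miR-541*) were also deleted in these cells, and *Dnmt1*, *Dnmt3a* and *Dnmt3b* were then inactivated by base editing in the SC embryos. The miRNA deletions are heterozygous in the embryo, the maternal alleles stay intact, and the edited cell lines were each grown from a single cell. Both groups are labelled C57BL/6 male by F1 female. The sources do not say which part of the embryo was taken at E7.5 or whether embryos were pooled. No SC library at this stage carries the miRNA deletions without the *Dnmt* mutations or the reverse, so the effects of the 2 kinds of mutation cannot be told apart here.

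DNMT3A and DNMT3B set cytosine methylation in the early embryo and DNMT1 copies it after replication, and the methylation of promoters can keep germline genes silent in the body. A miRNA is cut from a hairpin into a 5p and a 3p arm, and bases 2 to 8 of the arm, the seed, choose its targets. A block of miRNA genes on the X chromosome, which includes *miR-465*, *miR-741*, *miR-743*, *miR-871* and *miR-880*, is known for its expression in the testis and is called the germline X cluster below. The *Dlk1-Dio3* locus expresses its many miRNAs from the maternal allele.

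The sequences of the called miRNAs (Benjamini-Hochberg adjusted p under 0.05 over all 585) are shown because they separate the miRNAs that can be counted one by one from those that cannot. They are the RefSeq mature sequences on GRCm38.p6, 5′ to 3′, with the seed in capitals. Of the members of the germline X cluster, *miR-465a-3p*, *miR-465b-3p* and *miR-465c-3p* have the same sequence, which 5 annotated genes hold exactly, and their counts cannot be separated. The 5p arms of this family share a seed and differ elsewhere.
miR-465a-3p: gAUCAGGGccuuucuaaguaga
miR-465b-3p: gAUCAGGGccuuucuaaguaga
miR-465c-3p: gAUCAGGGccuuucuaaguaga
miR-465a-5p: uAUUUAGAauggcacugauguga
miR-465c-5p: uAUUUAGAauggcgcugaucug
The other called members of the cluster each have a seed that no other called miRNA shares.
miR-741-3p: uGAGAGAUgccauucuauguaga
miR-743b-3p: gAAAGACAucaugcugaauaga
miR-871-3p: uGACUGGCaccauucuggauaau
miR-871-5p: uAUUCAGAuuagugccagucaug
miR-878-3p: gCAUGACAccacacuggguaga
miR-878-5p: uAUCUAGUuggaugucaagaca
miR-880-3p: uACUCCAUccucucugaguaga
miR-470-5p: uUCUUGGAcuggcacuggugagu
The called miRNAs outside both the cluster and *Dlk1-Dio3* share no seed with any other of the 1275 mature miRNAs in the table that had a RefSeq sequence.
miR-142a-5p: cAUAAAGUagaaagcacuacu
miR-1195: uGAGUUCGaggccagccugcuca
miR-5126: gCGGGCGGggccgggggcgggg
miR-92a-1-5p: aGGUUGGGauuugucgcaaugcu
The called miRNA inside *Dlk1-Dio3* is the 3p arm of a deleted gene.
miR-127-3p: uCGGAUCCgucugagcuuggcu

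The germline X list holds 39 mature miRNAs of 21 genes, and 18 of these genes lie on the minus strand within 62.4 kb (chrX:66776760-66839121, GRCm38). None of the sequences shown from this block overlaps another annotated gene in GENCODE vM21. *miR-142a* lies in an intron of the lincRNA gene *Mir142hg* (mature 5p arm at chr11:87756867-87756887), and *miR-92a-1* in an exon of *Mir17hg* (chr14:115044437-115044459). *miR-1195* (chr17:70860558-70860580) lies opposite an intron of the pseudogene *Gm9320*, and *miR-5126* (chr1:84695890-84695911) opposite an exon of *Dner*.

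The 6 libraries held between 8570373 and 26970637 counts, and the mutant libraries (9267285, 16808675 and 8570373) were on the whole shallower than the control libraries (26970637, 19089889 and 13306003). Replicates differed far beyond counting error, and 183 of the tested miRNAs had 0 counts in one library and at least 100 in another, which shows how uneven the low values are. Values below are normalized CPM, the deposited counts scaled to a common library total with TMM factors, unless a share of counts is named. The markers of the epiblast, the miR-302 and miR-367 cluster, took 19.8, 23.6 and 24.6% of counts in control and 8.60, 18.8 and 15.3% in the mutant libraries, against medians of 23.0% in natural E7.5 control epiblast (Epi) and 4.63% in natural E7.5 control extraembryonic ectoderm (Exe). The extraembryonic markers of the *Sfmbt2* cluster took 1.17 to 2.93% in control and 0.942 to 4.82% in the mutant, with the highest share in the mutant library that had the least the miR-302 and miR-367 cluster. In bulk samples, fewer cells of a type and less RNA per cell cannot be told apart.

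The deleted genes came first. Their deletions are on the paternal allele, and 5 of the 6 genes lie in a locus expressed from the maternal allele. Arms that stay present therefore cannot check the labels. The guides that the study lists for them are shown 5′ to 3′ with the bases that fall in a mature arm in capitals. Of these, 6 lie wholly within the RefSeq hairpin of their gene and 1 (Mir409-sgRNA-1) with 15 of its bases, and they cover between 1 and 17 bases of an arm.
Let7b-sgRNA: gggTGAGGTAGTAGGTTGTG
Mir127-sgRNA: tcaTCGGATCCGTCTGAGCT
Mir541-sgRNA: cagagAAGGGATTCTGATGT
Mir369-sgRNA: ggctgacttcgAATAATACA
Mir540-sgRNA: gacAGGTCAGAGGTCGATCC
Mir409-sgRNA-1: Tctctccgagtaccacggag
Mir409-sgRNA-2: TTGCTCGGTGAACCCCTttt
The Mir127 guide covers 17 bases of the miR-127-3p arm, the Mir541 guide 15 bases of miR-541-5p and the Mir369 guide 9 bases of miR-369-3p.

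Of the arms of the 6 deleted genes, edgeR called 1 lower in the mutant embryos, and all of the abundant ones were still present. DESeq2 called 3 of the 11 tested arms lower, *miR-127-3p*, *miR-409-3p* and *miR-541-5p*, beside 21 of all 585. Of 12 arms in the table, 11 were tested, 10 had a fitted value below 0 (8 when only library totals were used for scaling) and the 1 call stands beside 0.342% of all tested miRNAs called lower. Scaling by library totals alone moved the median log2 fold change of all tested miRNAs from -0.04 to 0.21, and that of the 11 arms relative to it was -0.38, against -0.36 with TMM. let-7b-3p had 0 counts in all 6 libraries. *miR-127-3p*, the most abundant arm and transcribed opposite an exon of *Rtl1*, was 70500, 58300 and 60700 normalized CPM in control and 43400, 35100 and 41800 in the mutant. The groups did not overlap, with means of 63200 ± 6450 and 40100 ± 4390 (SD), and the log2 fold change was -0.66 ± 0.14 (SE, n = 3 and 3, edgeR quasi-likelihood adjusted p = 0.0475). This call was lost in 14 of 15 alternative analyses, whose adjusted p ranged from 0.0021 to 0.435.

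*miR-541-5p* was 37900, 29600 and 33000 normalized CPM in control and 25100, 23400 and 23700 in the mutant, without overlap (log2 fold change -0.48 ± 0.14, edgeR adjusted p = 0.140). *miR-409-3p* was 30100, 23700 and 25900 in control and 16900, 18200 and 17600 in the mutant, without overlap (-0.60 ± 0.14, edgeR adjusted p = 0.0731). *miR-540-3p* was 1850, 1510 and 1480 in control and 1240, 1160 and 1090 in the mutant (-0.47 ± 0.19, edgeR adjusted p = 0.335). None of these 3 arms passed the adjusted threshold with edgeR. With TMM the 2 groups did not overlap in any of them, while by library totals only *miR-409-3p* did not overlap. Over the 11 tested arms, 6 were lower without overlap with TMM, beside 11.3% of all tested miRNAs. *miR-409-5p*, the other arm of the *miR-409* hairpin, was 8920, 6860 and 7970 in control. In the mutant it was 5850, 6120 and 6270 (-0.38 ± 0.15, edgeR adjusted p = 0.349). Its groups did not overlap with TMM but did by library totals. The remaining arms were less abundant, and *let-7b-5p*, the only one outside the locus, was 18.9, 35.3 and 31.0 in control and 3.70, 42.4 and 32.2 in the mutant, fully overlapping.

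**Figure D1:**
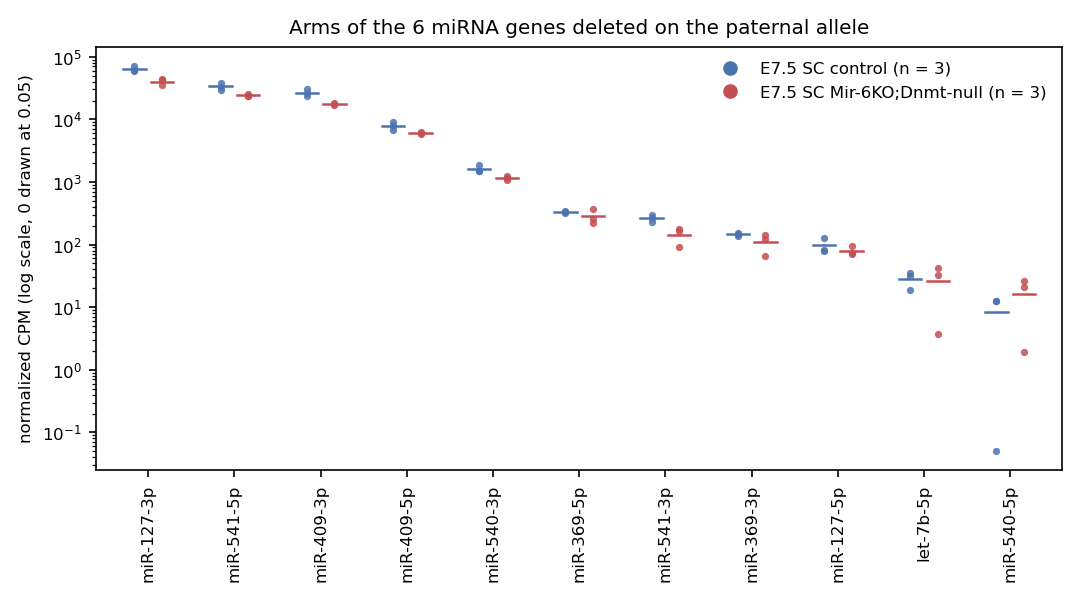
Normalized CPM (log scale) of the 11 tested arms of the 6 deleted genes in each library; points are libraries, bars are group means. miR-127-3p fell from a mean of 63200 to 40100, and no abundant arm came close to 0.

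The libraries that should carry the same deletions without a maternal allele did not serve as a check of the deletions. The 2 libraries labelled Mir-6KO AG-haESC had 44900 and 35700 CPM of *miR-127-3p* (per library total), where the 3 libraries of the parent line O48 had 551 to 594. The libraries labelled Mir-6KO AG-haESC also had 26.3 and 29.3% of counts on the miR-302 and miR-367 cluster, against 0.126 to 0.233% in O48. Their level of the miR-290-295 cluster, which marks naive embryonic stem cells, was 3.82 and 2.85%, against 40.1 to 47.6% in O48. On these markers they lay with the E7.5 SC embryos and not with the haploid cells their label names. They enter no comparison here.

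Over all tested miRNAs, 18 were called, 16 higher and 2 lower in the mutant, which is 3.08% of those tested (2.74% higher and 0.342% lower). All 18 also passed with DESeq2 on the same libraries, which called 26 higher and 21 lower. In each of the 18 the 2 groups did not overlap, which is no separate evidence, since the calls rest on these libraries. Of all tested miRNAs, 9.23% were higher and 11.3% lower without overlap. The labels do not say that replicates came from separate embryos, so p-values measure only the spread between these libraries. At the thresholds of the study (log2 fold change over 0.5 and unadjusted p under 0.05), 34 were higher (5.81%) and 29 lower (4.96%). In the *Dlk1-Dio3* locus, 1 of 95 was called, the deleted *miR-127-3p*, and the median log2 fold change was 0.04. Its share of counts was 24.1% ± 2.77 in control and 23.2% ± 3.96 in the mutant (SD, n = 3 each, exact two-sided permutation p = 0.9, where 3 against 3 cannot go below 0.1). Outside the locus 16 were called higher and 1 lower, with a median of -0.08.

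**Figure D2:**
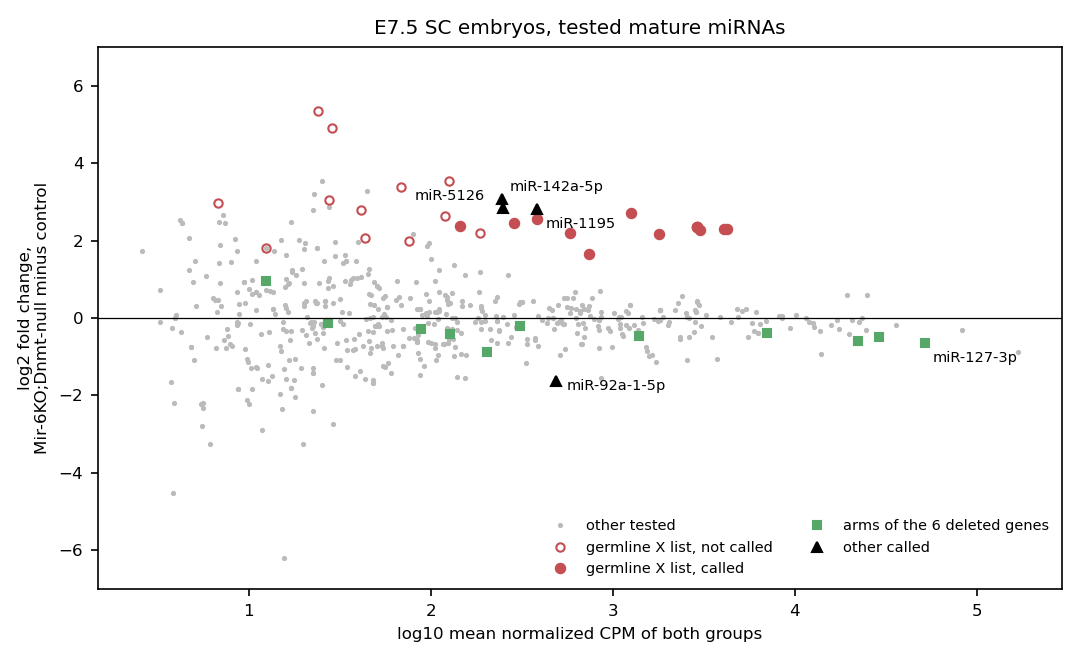
Log2 fold change (mutant minus control) against the log10 mean normalized CPM of both groups, for tested miRNAs; 11 miRNAs at 3 counts or fewer in every library of one group are left out. The called members of the germline X list (filled circles) lie between 1.64 and 2.71 over a wide range of abundance, and the deleted arms (squares) lie mostly just below 0.

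The germline X cluster held 13 of the 18 called entries, 3 of which are 1 measurement. Of 25 tested members, all 25 had a fitted value above 0, 13 were called higher and none lower, beside 2.74% of all tested miRNAs called higher. Some rare, uncalled members passed the count filter only with the mutant libraries, so their sign is no evidence. *miR-463-5p*, for example, had 86, 0 and 1 counts in control and 512, 1200 and 198 in the mutant. The median log2 fold change of the 25 was 2.35, against -0.04 over all tested miRNAs. In 21 of the 25 members the groups did not overlap in this direction, beside 9.23% of all tested miRNAs. Both the 25 and the 21 include such rare members and count the 3 entries of 1 measurement separately. Summed over the list, the cluster took 0.925, 0.852 and 0.641% of counts in control and 5.06, 4.87 and 4.15% in the mutant. The lowest mutant library was thus well above the highest control, and the mean share was 5.83 times as large (0.806% ± 0.148 and 4.69% ± 0.477, SD, n = 3 each, exact two-sided permutation p = 0.1, the smallest the design allows).

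*miR-741-3p*, the most abundant member, was 1560, 1350 and 1420 normalized CPM in control and 7350, 7630 and 6170 in the mutant. It was 4.88-fold higher (log2 fold change 2.29 ± 0.17, edgeR adjusted p = 0.000362). *miR-871-3p* was 1070, 1040 and 980 in control and 5060, 5650 and 4290 in the mutant, a 4.86-fold rise with the same adjusted p (2.28 ± 0.18, edgeR). In both, the gap between the groups was many times the spread within either of them.

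*miR-470-5p* was 1580, 1500 and 1020 in control and 6740, 7440 and 6060 in the mutant (4.94-fold, 2.31 ± 0.21, edgeR adjusted p = 0.000577). The shared sequence of *miR-465a-3p*, *miR-465b-3p* and *miR-465c-3p* was 1140, 930 and 790 in control and 4460, 5900 and 4220 in the mutant (5.09-fold, 2.35 ± 0.22, edgeR adjusted p = 0.000577). These 3 entries had almost the same counts and are 1 measurement. Counting entries with identical counts once left 12 members of the cluster called higher. That step removed only *miR-465c-3p* of the 3. *miR-465b-3p* had 96711 counts in mutant replicate 2 where the others had 96684, so the shared sequence still counts as 2 entries.

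The 5p arm of *miR-465a*, which can be told from its relatives, had the largest change among the called members, from 356, 449 and 198 in control to 1980, 2590 and 2010 in the mutant (6.55-fold, 2.71 ± 0.33, edgeR adjusted p = 0.00192). *miR-465c-5p* was 148, 288 and 181 in control and 888, 1120 and 845 in the mutant (2.21 ± 0.31). *miR-743b-3p* was 720, 727 and 524 in control and 3250, 3260 and 2300 in the mutant (4.47-fold, 2.16 ± 0.23, edgeR adjusted p = 0.00117). Each of these had every mutant library above every control library.

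*miR-880-3p* had the smallest called change of the cluster. It was 288, 400 and 384 in control and 1070, 1460 and 827 in the mutant (3.13-fold, 1.64 ± 0.28, edgeR adjusted p = 0.0129), and without control replicate 1 it did not pass (edgeR adjusted p = 0.0831). Both arms of *miR-878* and of *miR-871* were called higher. *miR-878-5p* was 128, 82.5 and 125 in control and 546, 756 and 669 in the mutant, and *miR-878-3p* was 110, 86.9 and 68.2 against 408, 600 and 448. The minor arm *miR-871-5p* was 43.8, 53.2 and 42.0 against 246, 264 and 218.

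**Figure D3:**
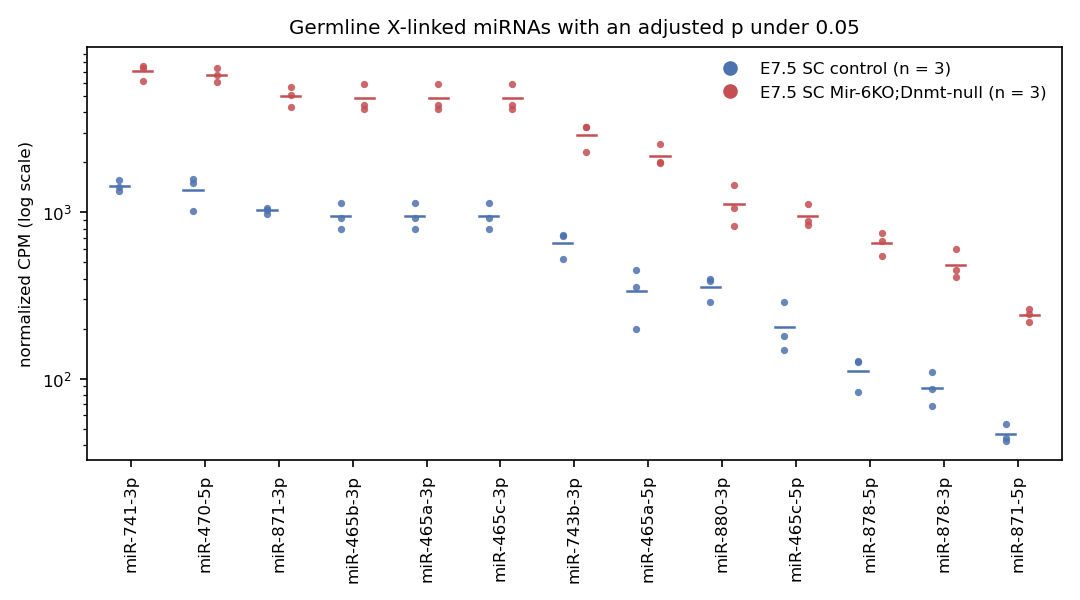
Normalized CPM (log scale) of the 13 called members of the germline X list in each library; points are libraries, bars are group means. In every member the 3 mutant libraries lie above the 3 control libraries, by 3.13- to 6.55-fold on the mean.

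The 12 tested members that were not called were rare, with mean levels between 1.14 and 66.5 normalized CPM in control and between 12.1 and 308 in the mutant. Their fitted log2 fold changes ran from 1.81 to 5.34, and their adjusted p from 0.0799 to 0.995 (edgeR). *miR-465b-5p*, which shares its seed with the called 5p arms, was 27.5, 43.8 and 28.8 in control and 75.3, 356 and 186 in the mutant (2.62 ± 0.62, edgeR adjusted p = 0.0799). *miR-743a-3p*, which shares the seed of *miR-743b-3p*, was 88.9, 87.3 and 23.3 in control and 390, 259 and 273 in the mutant (2.21 ± 0.53, edgeR adjusted p = 0.0820). Of the 39 listed, 32 had a count in the 6 libraries. *miR-201* and *miR-547*, which lie on the X chromosome away from the block, were at or near 0 in all 6.

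The shares of the cluster in other groups of the series are given as a description. At E6.5 its median share was 0.763% in wild-type SC embryos, 0.709% in DKO SC embryos and 3.29% in *Dnmt*-null SC embryos. At E7.5 the natural Epi had medians of 0.151% in control and 2.40% in *Dnmt*-null, and the natural Exe 1.26% and 3.86%. The median of 4.87% in the E7.5 *Mir-6KO*;*Dnmt*-null SC embryos was the highest of the 25 groups in the table. The level in E7.5 control SC embryos, 0.852%, lay between those of natural control Epi and Exe.

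**Figure D4:**
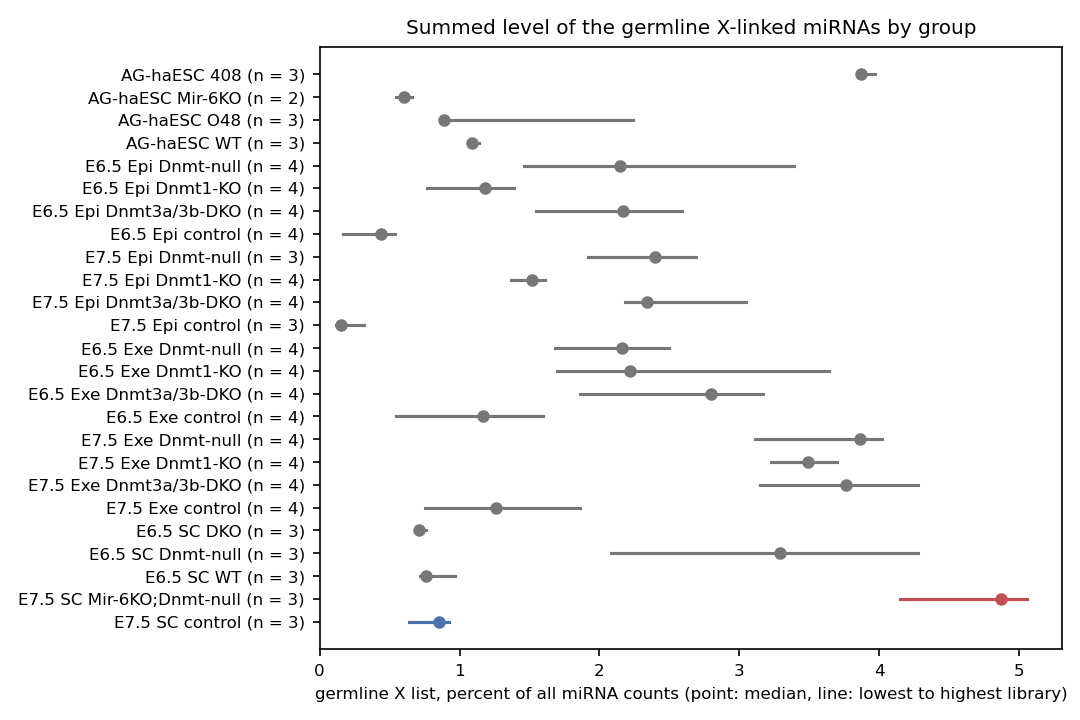
Share of all miRNA counts (percent) on the germline X list in each group; the point is the median library and the line runs from the lowest to the highest. The E7.5 SC mutant (red) spans 4.15 to 5.06% and the E7.5 SC control (blue) 0.641 to 0.925%.

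Outside the cluster, 3 further miRNAs were called higher. *miR-142a-5p*, an arm of a miRNA known from blood cells, was 46.7, 62.4 and 47.3 normalized CPM in control and 375, 538 and 398 in the mutant. This was the largest called change, 8.37-fold (3.07 ± 0.31, edgeR adjusted p = 0.000918). The defining markers of blood were at 0 or low in both groups. miR-223-3p had 0 counts in all 6 libraries, miR-451a reached at most 5.71 CPM in control and 1.78 in the mutant, and miR-144-3p at most 6.65 and 16 (per library total). Of the 11 tested members of the blood and endothelial list, *miR-142a-5p* was the only one called, beside 2.74% of all tested miRNAs called higher. Of the 11, 8 had fitted values below 0 (4 with library totals). The endothelial *miR-126a-3p* overlapped between groups.

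*miR-1195* was 63.3, 129 and 94.7 normalized CPM in control and 644, 741 and 627 in the mutant, 7.01-fold higher (2.81 ± 0.32, edgeR adjusted p = 0.00145). *miR-5126* was 109, 29.8 and 44.8 in control and 376, 455 and 473 in the mutant, 7.12-fold higher (2.83 ± 0.51, edgeR adjusted p = 0.0184). The *miR-5126* call did not hold without mutant replicate 3 (edgeR adjusted p = 0.0889) or without control replicate 3 (edgeR adjusted p = 0.0701). The sequence of *miR-5126*, shown above, consists of G and C alone.

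The only miRNA outside the locus called lower was *miR-92a-1-5p*, the minor strand of one of the 2 hairpins that yield *miR-92a*. It was 604, 791 and 823 normalized CPM in control and 215, 270 and 229 in the mutant, without overlap (-1.63 ± 0.24, edgeR adjusted p = 0.00547). The major strand, *miR-92a-3p*, was 88600, 89300 and 97300 in control and 58000, 91200 and 71600 in the mutant, with overlap (-0.32 ± 0.17, edgeR adjusted p = 0.556). Of the 23 tested members of the miR-17~92 cluster and its paralogs, *miR-92a-1-5p* was the only one called, beside 0.342% of all tested miRNAs called lower. Of the 23, 19 had fitted values below 0 (15 with library totals).

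The most abundant miRNA of all, *miR-302b-3p* of the epiblast cluster, was 182000, 221000 and 250000 normalized CPM in control and 63500, 171000 and 123000 in the mutant. The groups did not overlap but the mutant libraries spread widely, and the change did not pass (-0.87 ± 0.32, edgeR adjusted p = 0.296). All 9 tested members of the miR-302 and miR-367 cluster had fitted values below 0 with a median of -0.94. None was called with edgeR, and 1 was called lower with DESeq2, beside 21 of all 585. In 7 of the 9 the groups did not overlap, beside 11.3% of all tested miRNAs lower without overlap. At the thresholds of the study 5 of the 9 were lower, beside 4.96% of all tested miRNAs. The miR-290-295 cluster showed no such shift, with a median of -0.03, which library totals turned to 0.23. Of its 18 members, edgeR called 0 and DESeq2 1 lower.

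The X-linked miR-322 and miR-503 cluster, known from muscle and cell cycle control, lay in the same direction. All 11 tested members had fitted values below 0 (10 with library totals), the median was -0.81 and edgeR called none in the main fit. DESeq2 called 2 lower, *miR-351-5p* and *miR-322-3p* (adjusted p = 0.00413 and 0.00471), beside 21 of all 585. *miR-351-5p* was 4600, 2990 and 2790 in control and 1190, 1750 and 1980 in the mutant (-1.07 ± 0.27, edgeR adjusted p = 0.0977). *miR-322-3p* was 1520, 1740 and 580 in control and 372, 429 and 502 in the mutant (-1.56 ± 0.40, edgeR adjusted p = 0.0977). Neither group pair overlapped, although control replicate 3 of *miR-322-3p* came close to the mutant libraries. Of the 11 members, 5 were lower without overlap, beside 11.3% of all tested miRNAs.

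Other lists held no call in the main edgeR fit, while DESeq2 called 1 or more members of several. Among the largest median log2 fold changes, the Hox list had -1.72 (3 of 3 below 0) and the mesenchymal list -1.17 (3 of 5 below). miR-34 had 1.19 (3 of 3 above) and miR-29 with miR-148 and miR-152 -1.05 (6 of 7 below). The neural list had -0.75 (9 of 11 below) and miR-130 with miR-301 -0.54 (6 of 7 below). The 51 tested members of the *Sfmbt2* cluster had a median log2 fold change of 0.20, the 10 of let-7 of -0.07 (0.15 with library totals), the 12 of miR-30 of 0.18 and the 7 of miR-200 of 0.08. The 6 tested members of miR-181 all had fitted values above 0 (median 0.81) without a call. Among miRNAs of other imprinted loci, *miR-483-3p*, which lies within *Igf2*, was 167, 270 and 250 in control and 110, 51.6 and 74.4 in the mutant (-1.55 ± 0.41, edgeR adjusted p = 0.122). *miR-298-5p*, from the imprinted *Gnas* region, was 13500, 15000 and 17600 in control and 20200, 28200 and 21100 in the mutant, without overlap (0.59 ± 0.18, edgeR adjusted p = 0.170). Neither passed the threshold in the main fit, and the 2 had fitted values of opposite sign. Both passed with DESeq2 (adjusted p = 0.0287 and 0.029), and *miR-298-5p* also with library totals (edgeR adjusted p = 0.0107).

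Among the lowest values, 10 tested miRNAs were at 3 counts or fewer in every mutant library and were detected in control. *miR-301b-3p*, of the miR-130 and miR-301 family, was 11.1, 58.0 and 33.8 normalized CPM in control and 0 in all 3 mutant libraries, at least 133-fold lower against a floor of 3 counts per library (edgeR adjusted p = 0.0820). *miR-219a-1-3p*, whose counts are identical to those of *miR-219c-5p* in these 6 libraries, was 10.6, 31.3 and 37.5 in control and 0 in the mutant, at least 103-fold lower (edgeR adjusted p = 0.124). Neither passed the threshold in the main fit. Both passed with DESeq2 (adjusted p = 5.84e-07 and 4.93e-06) and with all SC groups in 1 fit (edgeR adjusted p = 0.00798 and 0.000714). Against the natural embryos, the SC change of both was called lower than that in Epi and that in Exe, and no size is given since the mutant libraries were at 0. Neither passed against Exe with only the SC and Exe libraries fitted (edgeR adjusted p = 0.112 for each).

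The same mutation of the 3 *Dnmt* genes was measured in natural E7.5 embryos, with 3 control and 3 *Dnmt*-null libraries of Epi and 4 and 4 of Exe, which share no library with the SC groups. In 1 model over all of these, the SC change was tested against the Epi and the Exe change. Against Epi, 3 differences were called higher (0.411% of 730 tested) and 12 lower (1.64%), and against Exe 5 higher (0.685%) and 8 lower (1.1%). When only the SC and Exe libraries were fitted, 1 difference was called in each direction. No member of the germline X cluster was among them. The cluster had 20 of 30 tested members called higher in Epi (10.4% of all tested were) and 13 of 30 in Exe (4.25%), with medians of 3.498 and 1.57 on the log2 scale. *miR-741-3p*, for example, rose in Epi by 3.32 ± 0.39 and in Exe by 1.49 ± 0.32 on the log2 scale (SE), beside 2.29 in SC embryos, and neither difference was called (edgeR adjusted p = 0.236 and 0.493). A difference that misses the threshold does not show that the changes were equal.

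The arms of 2 deleted genes were among the differences. The SC groups also differ from the natural ones by semi-cloning and by the paternal *H19* and *IG* deletions, and the part taken is not stated. The effect of the miRNA deletions cannot be told apart from these here. *miR-127-3p* rose in natural *Dnmt*-null Epi by 0.55 on the log2 scale, against a value of -0.66 in the SC embryos, a difference of -1.24 ± 0.22 (edgeR adjusted p = 0.00341). *miR-409-3p* differed by -1.27 ± 0.22 (edgeR adjusted p = 0.00283) and *miR-409-5p* by -1.23 ± 0.23 (edgeR adjusted p = 0.00341) from Epi. The same 3 arms also differed from Exe, by -1.29, -1.07 and -1.02. When only the SC and Exe libraries were fitted, *miR-127-3p* still passed (edgeR adjusted p = 0.0167), while *miR-409-3p* (0.0617) and *miR-409-5p* (0.112) did not, and the latter was also lost without control replicate 1 or 3. The other tested arms of the deleted genes did not pass against Epi, with adjusted p of 0.139 or more. Of the locus members that were not deleted (named here after their values were seen), *miR-382-5p* and *miR-485-3p* also differed from Epi, by -1.85 ± 0.46 and -1.13 ± 0.29 (edgeR adjusted p = 0.0353 and 0.0395), and each was lost in 3 of 6 fits that left out 1 SC library (mutant replicate 2, mutant replicate 3 or control replicate 1, adjusted p up to 0.108 and 0.11).

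Outside the locus, *miR-351-3p* of the miR-322 and miR-503 cluster fell in Epi by 3.61 on the log2 scale and had a value of -0.65 in the SC embryos, a difference of 2.91 ± 0.54 (edgeR adjusted p = 0.00341). Both arms of *miR-483* also differed from Epi, where they were listed at 0 in all 3 *Dnmt*-null libraries, so no size is given. *miR-483-3p* differed from Exe by 2.73 ± 0.66 (edgeR adjusted p = 0.0389). With only the SC and Exe libraries fitted, 1 higher difference in all was called. *miR-142a-5p* was higher in mutant SC embryos and in *Dnmt*-null Epi (4.74 ± 1.02 on the log2 scale), while in Exe its fitted value was -2.42 ± 0.79 without passing (edgeR adjusted p = 0.0635). Its difference between SC and Exe was 5.46 ± 1.23 (edgeR adjusted p = 0.0213), which did not pass with only the SC and Exe libraries fitted (edgeR adjusted p = 0.0828) or without any 1 of the control libraries of the SC embryos (up to 0.0811). *miR-1195* was called higher in all 3, with 2.81 in SC, 3.06 in Epi and 2.43 in Exe on the log2 scale.

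**Figure D5:**
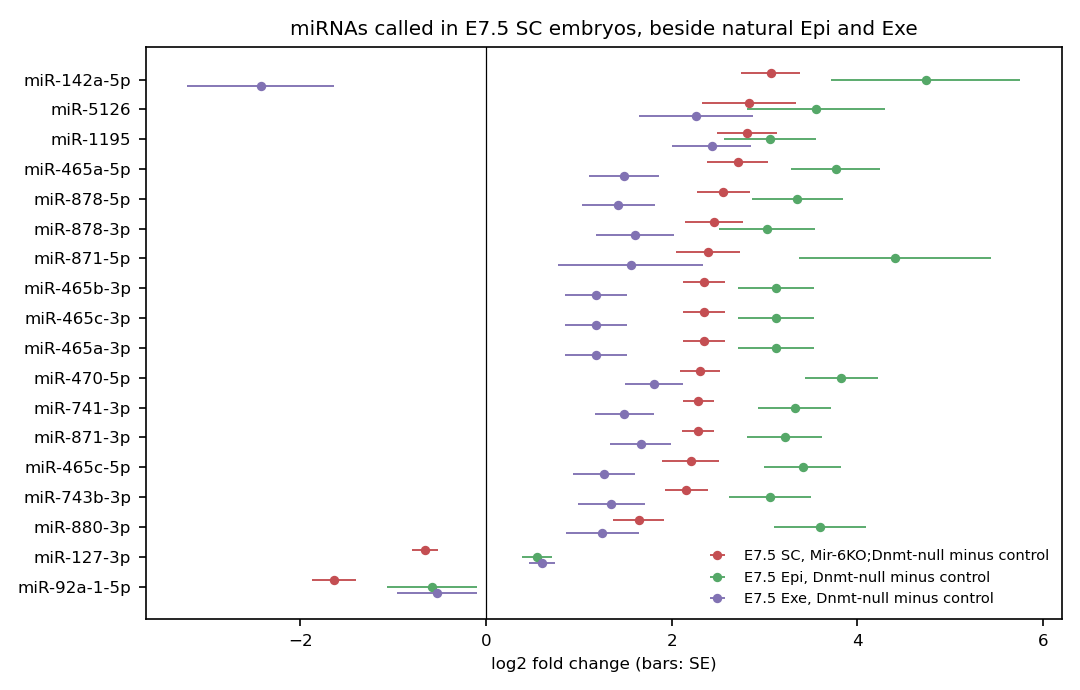
Log2 fold change of the 18 called miRNAs in E7.5 SC embryos (mutant minus control) beside the change of Dnmt-null against control in natural E7.5 Epi and Exe; bars are SE. The germline X members lie above 0 in all 3, miR-142a-5p lies below 0 in Exe, and miR-127-3p lies below 0 only in the SC embryos.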

How the data were processed

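Small RNA was sequenced by CAS-seq, which uses Cas9 to cut adapter dimers from very small samples. Per the labels and the study's methods, the authors trimmed reads with fastp 0.20.1, aligned them to GRCm38 with Bowtie 1.2.1.1 and deposited one whole-number count per mature miRNA and library. They tested with DESeq2 1.30.1. From the deposited counts, CPM (per library total, or normalized with TMM factors), the percent of counts per list and log2 fold changes were computed here. The 6 libraries were compared with quasi-likelihood F statistics from edgeR 4.0.16, run in R 4.3.3 beside limma 3.58.1, without covariates, after filterByExpr with a count minimum of 10, and with Benjamini-Hochberg adjustment over all 585 miRNAs. A second fit took in the E7.5 Epi and Exe control and *Dnmt*-null libraries. DESeq2 1.42.0, other scalings and filters, and leaving out each library were alternatives. Named were both arms of the deleted genes, the largest non-overlapping calls outside the locus (filled by p at the thresholds of the study) and inside it, the 5 most abundant miRNAs, and the 2 most abundant of each list. Others are named where a count or difference turns on them. Members and lists were chosen with earlier results of these data known. On simulated counts with 200 miRNAs changed 4-fold, 46.5% were recovered (85.9% of those over 100 CPM), and 0.552% of unchanged ones were called. Intervals for depth are not given, since the spread between replicates was far larger than counting error.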

Additional observations from a re-analysis of the deposited data

Results flagged for a closer look

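The change of *miR-127-3p* in E7.5 SC mutant embryos differed from that in *Dnmt*-null natural Epi by -1.24 on the log2 scale. From that in natural Exe it differed by -1.29. Both come from a test of the difference itself (edgeR adjusted p = 0.00341 and 0.00349). Both passed when only the compared groups were fitted (edgeR adjusted p = 0.00129 and 0.0167). SC and natural embryos also differ by semi-cloning and by the paternal *H19* and *IG* deletions, which cannot be told apart from the miRNA deletions here. The change of *miR-142a-5p* differed between SC embryos and Exe by 5.46 on the log2 scale (edgeR adjusted p = 0.0213, and 0.0828 with only the SC and Exe libraries fitted), with Exe libraries spread from 113 to 1940 CPM in control and from 25.2 to 655 in *Dnmt*-null. The 2 libraries labelled Mir-6KO AG-haESC, which enter no comparison, had a median of 17.7% of counts on *Dlk1-Dio3*, above the 0.203 to 0.217% of the O48 libraries.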

How the results depend on the processing

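Of 584 alternative values of single miRNAs, 27 newly passed and 19 no longer passed. Lost were 14 of *miR-127-3p*, 3 of *miR-5126*, 1 of *miR-871-5p* and 1 of *miR-880-3p* (without control replicate 1). Gained were 6 of *miR-465b-5p*, 5 of *miR-322-3p*, 4 of *miR-743a-3p* and 3 of *miR-351-5p*. Also gained were 2 each of *miR-219a-1-3p*, *miR-298-5p* and *miR-301b-3p*, and 1 each of *miR-409-3p*, *miR-483-3p* and *miR-541-5p*. 5 values of 3 uncalled miRNAs changed sign: with library totals *let-7b-5p* was 0.0577 and *miR-369-5p* 0.0594, and with a library left out *let-7b-5p* ran from -0.6233 to 0.4028 and *miR-126a-3p* from -1.0822 to 0.0823. The 18 calls became 47 with DESeq2, 39 in a fit of all SC groups and 63 at the thresholds of the study. The 16 higher outside the locus became 26 with DESeq2 and 33 at those thresholds, where 1 was higher inside it. The 1 lower outside became 16 with DESeq2, 15 in the fit of all SC groups, 25 at those thresholds, 3 with a mean of at least 10 counts and 4 without a filter (1 to 3 with single libraries left out). The 1 lower inside became 5 with DESeq2, 4 at those thresholds and 0 with RLE scaling, TMM without the locus, all SC groups, library totals, a mean of at least 10 counts, no filter, identical counts taken once (an alternative added after seeing the data) or any library left out. The germline X count of 13 stayed between 12 and 19, and between 12 and 14 with a library left out. Of differences from Epi, the 3 higher became 61 at those thresholds and 7 in a fit of the compared groups only (3 to 11 with a library left out), and the 12 lower became 90 and 23 (7 to 37, the latter without mutant replicate 1). For Exe, the 5 higher became 50 and 1 (1 to 5), and the 8 lower 57 and 1 (5 to 10). The median inside the locus, 0.04, was 0.29 with library totals, and -0.0307 (without mutant replicate 1) to 0.11 with a library left out. The median outside, -0.08, was 0.18 with library totals, and -0.13 to 0.0021 with a library left out, above 0 without control replicate 1. The share on the locus differed by -0.91 percentage points, and by -2.79 to 1.16 with a library left out. With the replicate number as a block, 16 were called, 15 higher and 1 lower outside the locus and 0 lower inside, with 13 of the germline X list, and *miR-5126* was lost (edgeR adjusted p = 0.0664). Same-numbered libraries correlated at 0.115, -0.0252 and -0.035 in their deviations, so they share only a number. The cause of these changes was not tested. At 3 libraries a group, changes of rare miRNAs were mostly not detectable.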
